A study of Homo sapiens with 16 samples.

Results

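The 38 genes described here carry out glycolysis or belong to the response of cells to low oxygen. They were taken as a named list: 5 genes of oxygen sensing, 9 hypoxia-responsive targets, 4 of glucose uptake and phosphorylation, 9 of upper and 6 of lower glycolysis, and 5 of pyruvate and lactate handling. Every row carrying one of these symbols was read from the expression files, and all 38 were found among 21453 symbols. For 17 of them the files held several transcript rows (79 rows in all), and the row with the highest mean stood for the gene. The list entered the tests with 37 genes, since the glucose transporter gene SLC2A3 stayed between 0.0672 and 0.203 RPKM (reads scaled to transcript length and to the size of the library) in the 16 libraries and did not pass the filter of 1 RPKM in 2 libraries.

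Glycolysis turns glucose into pyruvate in the cytosol, and lactate dehydrogenase can then reduce pyruvate to lactate, which leaves the cell through monocarboxylate carriers. Many of its genes are targets of the hypoxia-inducible factors, whose alpha subunits HIF1A and EPAS1 (HIF-2 alpha) are hydroxylated by the EGLN enzymes when oxygen is present and then marked for destruction by VHL. When oxygen falls the subunits persist, pair with ARNT and bind DNA at a short core motif, so that genes for glucose uptake, glycolysis, mitophagy and vessel growth are induced. Messenger RNA levels of HIF1A or EPAS1 do not report the activity of these proteins, which is set mainly by protein stability.

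The RNA came from ECC-1, an established endometrial cancer cell line, and T-47D, an established breast cancer cell line that expresses the estrogen receptor. Cultures of both lines spent 5 days in RPMI-1640 without phenol red and with 10% charcoal-treated serum, conditions low in estrogens, in dishes of 100 mm. For the last 8 h they received 0.02% DMSO as vehicle, 10 nM estradiol (E2), 100 nM genistein (GEN), a plant isoflavone, or 100 nM bisphenol A (BPA), a plasticizer. Every treatment in every line has 2 libraries, which gives 8 groups and 16 libraries, made from polyadenylated RNA without strand information. Each tissue is represented by 1 cell line, so a difference between the lines is not a difference between tissues, and the labels do not say whether the 2 libraries of a group came from separate cultures. The p-values below therefore measure the spread between these libraries, which may be technical.

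The depth estimated from the steps of low values was 17.4 to 29.4 megareads per library (median 20.7). The replicate 1 library of E2 stood apart in both lines: its median correlation within the line was 0.987 (ECC-1) or 0.980 (T-47D), and that of every other library was 0.989 to 0.997. Luminal breast markers (GATA3, FOXA1, SPDEF, TRPS1 and PIP) summed to 854 to 1140 scaled RPKM in T-47D and to 5.31 to 7.44 in ECC-1, and Mullerian markers (PAX8, MSX1, EMX2, SOX17 and HOXA10) to 328 to 372 in ECC-1 and 0.439 to 0.745 in T-47D. The estrogen-responsive genes GREB1, MYC and PGR all rose with E2 in both lines and with GEN in T-47D, GREB1 by 2.30 on the log2 scale with E2 in T-47D, and none of them passed the test with BPA.

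Promoters of 32 of the 38 genes were present in the RefSeq table for GRCh38.p14, and the 250 bases before each start were searched on both strands for ACGTG or GCGTG, the core letters of the hypoxia response element. A match was present in 20 of the 32 (62.5%), against 15172 of 35116 promoters of all genes (43.2%). The 35116 were not matched to the members in expression or base composition, and the difference between the shares was not tested. BNIP3 held 6 matches, LDHA and ALDOC 5 each, and HK2, ANKRD37 and PGK1 3 each, where a CACGTG reads as a match on both strands and counts 2. The full palindromic estrogen response element, GGTCA and TGACC set 3 bases apart, was in none of the 32 and in 14 of the 35116 (0.0399%). A match in these letters is a description of the window and not a bound site, and the files were made on hg19, so no value was joined to these positions. Each gene has 1 window here, which need not lie at the start of the transcript row measured. Of the 8 members described below for their difference between the T-47D libraries, BNIP3 and LDHA held the most matches. Of the others PFKFB4 and ENO2 held 1 each and EGLN3 and PDK1 0, and VEGFA and NDRG1 had no promoter entry. The windows below belong to BNIP3 and LDHA, and to PFKFB3 and EPAS1, the members that passed the test with E2. Each is written 5′ to 3′ along the gene's own strand, with the matches (or their reverse complements) in capitals. BNIP3 lies on the minus strand at chr10:131981924-131982173, and LDHA (chr11:18394313-18394562), PFKFB3 (chr10:6144671-6144920) and EPAS1 (chr2:46297157-46297406) lie on the plus strand.
BNIP3: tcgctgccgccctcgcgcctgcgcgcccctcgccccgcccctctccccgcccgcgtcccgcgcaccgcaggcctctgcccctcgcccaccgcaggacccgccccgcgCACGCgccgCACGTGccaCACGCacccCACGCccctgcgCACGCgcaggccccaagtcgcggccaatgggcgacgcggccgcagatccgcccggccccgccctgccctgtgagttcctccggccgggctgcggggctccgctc
LDHA: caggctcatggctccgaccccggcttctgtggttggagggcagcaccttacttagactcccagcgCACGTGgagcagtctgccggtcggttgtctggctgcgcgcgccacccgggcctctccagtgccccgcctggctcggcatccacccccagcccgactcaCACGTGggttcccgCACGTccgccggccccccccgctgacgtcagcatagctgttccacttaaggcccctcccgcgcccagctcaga
PFKFB3: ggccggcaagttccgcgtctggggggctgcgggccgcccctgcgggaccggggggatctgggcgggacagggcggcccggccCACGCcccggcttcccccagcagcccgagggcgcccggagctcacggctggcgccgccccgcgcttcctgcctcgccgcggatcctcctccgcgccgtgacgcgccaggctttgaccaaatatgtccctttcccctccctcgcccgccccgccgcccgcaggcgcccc
EPAS1: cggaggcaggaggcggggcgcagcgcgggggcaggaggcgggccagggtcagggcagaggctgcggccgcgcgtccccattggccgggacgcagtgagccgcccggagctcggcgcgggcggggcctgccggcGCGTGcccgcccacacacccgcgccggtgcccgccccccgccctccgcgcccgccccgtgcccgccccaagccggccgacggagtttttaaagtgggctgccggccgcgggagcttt

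Levels below are scaled RPKM, that is RPKM after 1 scale factor per library, and differences are on the log2(scaled RPKM + 0.5) scale with the standard error (SE) of a limma fit over all 13827 genes tested. In DMSO, T-47D differed from ECC-1 in 24 of the 37 members, 14 higher and 10 lower at an adjusted p under 0.05. Of all genes tested 76.7% passed (39.6% higher and 37.1% lower), so that a difference between the lines was the common case and the count says nothing particular about these genes. Of 5 oxygen-sensing genes 4 were higher in T-47D and 1 lower, of 6 lower glycolytic genes 0 were higher and 3 lower, and of 5 pyruvate and lactate genes 0 were higher and 2 lower. The lower glycolytic group depends on the scaling: its difference was positive in 1 of 6 here (median -0.41) and in 4 of 6 after quantile normalization (median 0.42). In bulk RNA, fewer cells of a kind and less RNA per cell cannot be told apart.

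**Figure D1:**
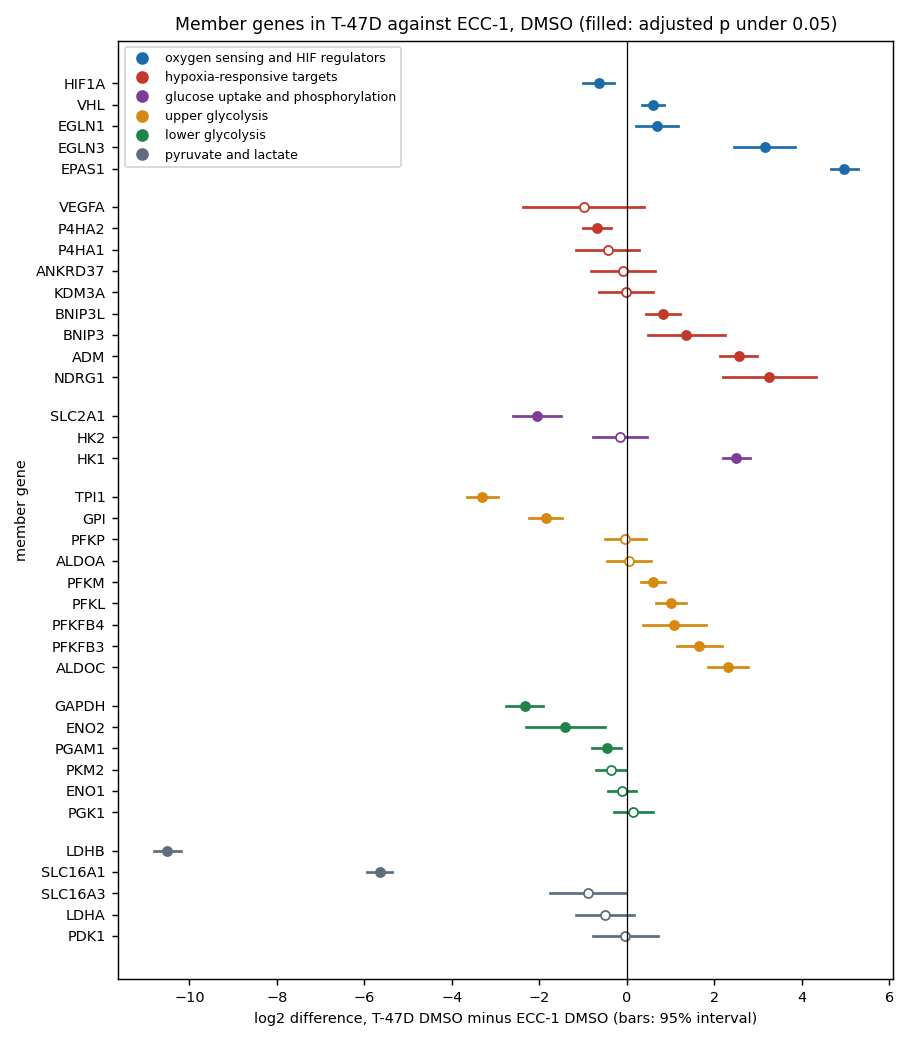
Log2 difference of each of the 37 tested members between T-47D and ECC-1 in DMSO (x axis, log2 of scaled RPKM + 0.5), grouped by role on the y axis. Points are estimates, bars 95% intervals, and filled points have an adjusted p under 0.05. LDHB and SLC16A1 lie farthest to the left and EPAS1 farthest to the right.

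Among the oxygen sensors, EPAS1 read 2.43 and 2.21 in the ECC-1 DMSO libraries and 81.9 and 94.3 in those of T-47D, a log2 difference of 4.97 (SE 0.148, adjusted p = 1.52e-13). HIF1A went the other way, with 87.2 and 91.4 in ECC-1 and 59.3 and 54.4 in T-47D (-0.65, SE 0.165, adjusted p = 0.00227). HIF1A made up 97.4% (median, range 96.8 to 97.7%) of the summed HIF1A and EPAS1 level over the 8 ECC-1 libraries and 43.8% (36.6 to 61.1%) over the 8 of T-47D. EGLN3, the hydroxylase that is itself hypoxia-induced, read 1.51 and 2.27 in ECC-1 and 25.4 and 16.4 in T-47D (3.15, SE 0.325, adjusted p = 3.35e-07). EGLN1, the main oxygen sensor of the family, was higher by 0.69 and VHL by 0.59, both with adjusted p under 0.05. The EGLN1 call ended without the replicate 1 DMSO library of T-47D (0.60, adjusted p = 0.0692) or of ECC-1 (0.66, adjusted p = 0.0519). With all transcript rows of a gene summed, the HIF1A share in T-47D was 60.2%, where HIF1A has 2 rows and EPAS1 1 and shared exons count once per row. None of the 8 T-47D libraries overlapped the 8 of ECC-1 in EPAS1 or EGLN3, at any treatment.

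Of the 9 hypoxia-responsive targets 4 were higher in T-47D and 1 lower. NDRG1, a stress-responsive gene, read 2.28 and 2.15 in ECC-1 and 36.3 and 17.8 in T-47D (3.26, SE 0.494, adjusted p = 2.18e-05). ADM, which encodes the vasodilator adrenomedullin, read 1.30 and 1.93 against 13.8 and 10.1 (2.56, SE 0.199, adjusted p = 1.26e-08). Both genes kept apart in all libraries, while the T-47D values of NDRG1 differed among themselves far more than those of ECC-1. The mitophagy receptor genes BNIP3 (1.36) and BNIP3L (0.83) also stood higher, and P4HA2 (-0.68), a collagen prolyl hydroxylase gene, lower. The BNIP3 call ended without the replicate 1 DMSO library of T-47D (0.89, adjusted p = 0.107). VEGFA, the vascular growth factor gene, read 21.8 and 21.1 in ECC-1 and 18.9 and 5.76 in T-47D, a difference of -0.99 with an interval of -2.38 to 0.39 that did not pass. P4HA1 (-0.44), ANKRD37 (-0.09) and the histone demethylase gene KDM3A (-0.02, the smallest difference of all members) did not pass either.

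Among the genes of glucose entry 1 was higher and 1 lower in T-47D. SLC2A1, the transporter GLUT1, read 68.1 and 93.7 in ECC-1 and 23.5 and 15.0 in T-47D (-2.06, SE 0.260, adjusted p = 3.10e-06). HK1, the housekeeping hexokinase, read 13.6 and 15.6 in ECC-1 and 82.7 and 86.1 in T-47D (2.50, SE 0.146, adjusted p = 4.36e-10). HK2, the inducible hexokinase, read 5.50 and 6.87 against 6.78 and 4.40 and did not pass (-0.16). HK1 thus made up 64.2% (60.4 to 71.1%) of the summed HK1 and HK2 level in ECC-1 and 93.5% (90.8 to 95.8%) in T-47D, with no overlap of the 8 libraries of each line.

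Upper glycolysis held 5 higher and 2 lower members of 9. The triose phosphate isomerase gene TPI1 read 890.4 and 895 in ECC-1 and 102 and 78.9 in T-47D (-3.31, SE 0.166, adjusted p = 6.99e-11). GPI, the glucose phosphate isomerase gene, read 168 and 199.6 against 56.0 and 45.1 (-1.86, SE 0.177, adjusted p = 1.35e-07). ALDOC, the brain-type aldolase gene, read 10.1 and 10.8 in ECC-1 and 62.8 and 46.2 in T-47D (2.31, SE 0.212, adjusted p = 8.37e-08). All 3 were fully separated between the lines in every treatment. PFKFB3 (1.66) and PFKFB4 (1.09), whose products make the activator of phosphofructokinase, and the phosphofructokinase genes PFKL (1.00) and PFKM (0.59) were higher in T-47D. The PFKFB4 call ended without the replicate 1 DMSO library of T-47D (0.69, adjusted p = 0.128) and without the replicate 2 DMSO library of ECC-1 (1.01, adjusted p = 0.0505). PFKP (-0.03) and ALDOA (0.05), the main aldolase, did not pass. PFKL held 34.0% of the summed PFKL, PFKM and PFKP level in ECC-1 and 46.2% in T-47D, PFKP 36.5% and 23.1%, and PFKM 30.5% and 30.2% (medians over 8 libraries).

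In lower glycolysis GAPDH read 4557 and 4755 in ECC-1 and 1072 and 789 in T-47D (-2.34, SE 0.197, adjusted p = 3.29e-08). It had the highest median level of all members in both lines (4699 and 977), although ENO1 was above it in the replicate 2 DMSO and BPA libraries of T-47D, and it is often taken as a reference gene. ENO2, the neuronal enolase gene, was lower in T-47D by 1.41 on the log2 scale (-1.41, adjusted p = 0.00678), with 15.3 and 14.2 against 7.63 and 3.55. That call ended without the replicate 2 DMSO library of T-47D (-0.91, adjusted p = 0.108). PGAM1 was lower in this fit (-0.46, adjusted p = 0.0116) but higher after quantile normalization (0.39, adjusted p = 0.0124), so its direction depends on the scaling, and the call ended without the replicate 2 DMSO library of T-47D (-0.29, adjusted p = 0.159) or the replicate 1 DMSO library of ECC-1 (-0.45, adjusted p = 0.0553). ENO1 (-0.12), PGK1 (0.15) and PKM2 (-0.36), the row of the pyruvate kinase gene PKM, did not pass, and the direction of ENO1, PKM2, LDHA and ALDOA also changed with the scaling (0.63, 0.46, 0.12 and 0.85 after quantile normalization). GAPDH, PGAM1, ENO1, LDHA and several other members have processed pseudogenes or near-identical copies, and no source used here states how reads matching several places were counted. PGAM4, a copy of PGAM1 on a further list described below, averaged 437 in the ECC-1 and 317 in the T-47D DMSO libraries (-0.47). Its difference is close to that of PGAM1, and whether the rows share reads was not tested. The 17 enzymes from hexokinase to lactate dehydrogenase summed to 9133 to 10690 scaled RPKM in ECC-1 (median 10360) and to 3747 to 5474 in T-47D (median 4704). A sum of levels rests most on the highest genes, and GAPDH alone had medians of 4699 and 977. The enzymes did not all differ in that direction in DMSO: HK1 (2.5) and ALDOC (2.31) were higher in T-47D, and TPI1 (-3.31) and LDHB (-10.5) lower.

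The widest gap was in lactate handling. LDHB, the heart-type lactate dehydrogenase gene, read 819 and 792 in ECC-1 and 0.0603 and 0.0443 in T-47D. Over all 8 T-47D libraries it lay between 0 and 0.160, which corresponds to an estimated 0 to 4.95 reads (median 2.49), against 647 to 838 in ECC-1. The T-47D values are thus near the level of a few reads, and the fitted difference of -10.51 (SE 0.146, adjusted p = 1.61e-16) depends on the 0.5 added before the logarithm. SLC16A1, the monocarboxylate carrier MCT1, read 49.9 and 49.0 in ECC-1 and 0.609 and 0.387 in T-47D (-5.65, SE 0.136, adjusted p = 1.38e-14). SLC16A3, the hypoxia-inducible carrier MCT4, read 7.65 and 10.9 against 6.38 and 3.42 and did not pass (-0.89, adjusted p = 0.0563). LDHA, the muscle-type dehydrogenase gene, read 397 and 393 against 374 and 208 (-0.50, adjusted p = 0.153). PDK1, whose kinase inhibits pyruvate dehydrogenase in the mitochondrion, read 6.10 and 5.87 against 7.91 and 4.27 (-0.03). LDHA made up 35.6% (32.7 to 38.3%) of the summed LDHA and LDHB level in ECC-1 and 99.97% (99.93 to 100%) in T-47D. SLC16A1 made up 76.7% (71.5 to 86.7%) of SLC16A1 and SLC16A3 in ECC-1 and 9.44% (6.15 to 25.4%) in T-47D. Summing all transcript rows of a gene instead raised the LDHA share in ECC-1 to 74.3%. LDHA has 6 rows and LDHB 1, and such a sum counts shared exons once per row. The summed share thus rises with the number of rows and does not settle which gene was the higher in ECC-1. In T-47D that share stayed at 100% after rounding.

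**Figure D2:**
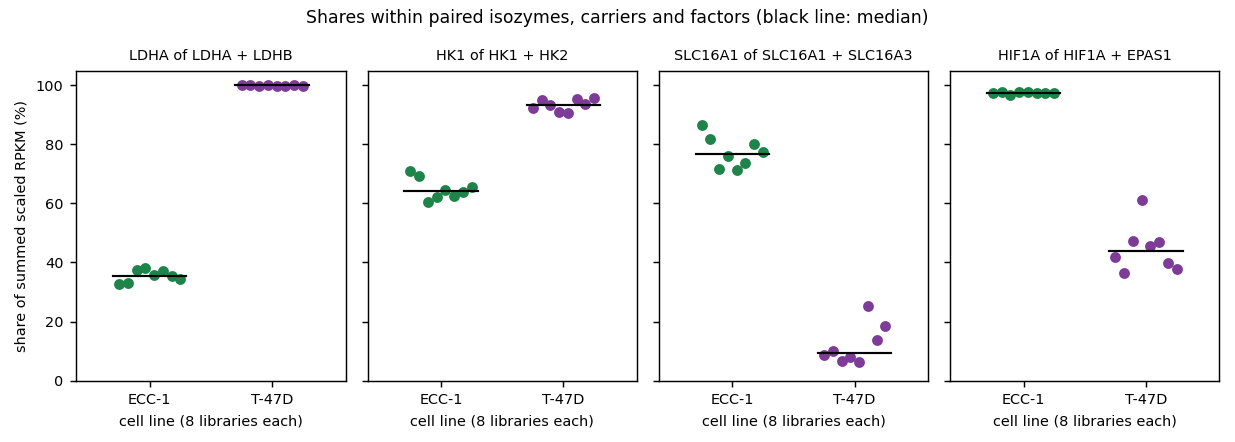
Share of 1 gene in the summed scaled RPKM of a pair (y axis, %) in the 8 libraries of each line, for lactate dehydrogenases, hexokinases, monocarboxylate carriers and hypoxia-inducible factor subunits. Points are libraries and black lines medians. In each of the 4 pairs the 8 libraries of ECC-1 and the 8 of T-47D do not overlap.

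GAPDH, TPI1 and ENO2 lie close together on chromosome 12 in the RefSeq order of GRCh38.p14, and the genes between them were looked at after these values had been seen. Of 23 protein-coding genes from GAPDH to ENO2, 20 were tested, 18 were lower in T-47D and none was higher, with a median difference of -1.97. Without the 3 members, 15 of 17 tested were lower (median -1.96), against 37.1% of all genes tested. The 2 that did not pass were ING4 (-0.03) and LRRC23 (-0.09). NOP2 was the farthest apart of the neighbours that are no members, where the ECC-1 libraries averaged 48.5 and those of T-47D 5.28. Gene copy number was not measured here.

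Within T-47D the 2 libraries of a treatment differed in these genes. In DMSO the replicate 1 library was above the replicate 2 library in 34 of 37 members, in GEN in 33 and in BPA in 30, while over all genes tested the shares were 46.5%, 48.5% and 46.1%. With E2 the count was 13 of 37 (49.0% of all genes), and among the ECC-1 groups it was 16 for DMSO, 20 for E2, 19 for GEN and 20 for BPA. At a difference of 1.5-fold or more, 12 members were higher and 0 lower in replicate 1 of DMSO (0.687% and 0.68% of all genes), 21 and 0 in GEN (2.05% and 0.47%), 8 and 0 in BPA (0.564% and 1.19%) and 1 and 6 in E2 (8.19% and 6.58%). In ECC-1 the same counts were 0 and 0 in DMSO (0.528% and 0.434%), 0 and 1 in E2 (3.82% and 4.57%), 0 and 0 in GEN (0.239% and 0.427%) and 0 and 0 in BPA (0.239% and 0.282%). Each of these comparisons sets 1 library against 1, so there is no test. They were looked at after the levels had been seen.

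By role, the medians of replicate 1 over replicate 2 in DMSO, GEN and BPA were 0.42, 1.28 and 0.52 for the hypoxia-responsive targets, 0.57, 0.86 and 0.44 for glucose uptake, 0.44, 0.77 and 0.08 for upper glycolysis, 0.40, 0.47 and 0.12 for lower glycolysis and 0.81, 1.00 and 0.36 for pyruvate and lactate. The oxygen-sensing genes had 0.12, -0.12 and 0.21. The members described next are those with at least a 1.5-fold difference in all 3 treatments. VEGFA read 18.9 and 5.76 in DMSO, 32.4 and 4.31 in GEN and 11.2 and 4.21 in BPA (replicate 1, then replicate 2), but 17.8 and 23.7 in E2. BNIP3 read 41.6 and 21.3, 54.3 and 18.1, and 32.5 and 17.6 in the same 3 treatments, and 34.7 and 54.5 in E2. In both genes the 3 replicate 2 libraries lay together at the bottom, and both E2 libraries lay above them. NDRG1 read 36.3 and 17.8 in DMSO, 41.9 and 8.42 in GEN, 25.3 and 13.4 in BPA, and 22.1 and 26.1 in E2. LDHA read 374 and 208 in DMSO, 416 and 207 in GEN, 307 and 199 in BPA, and 293 and 417 in E2. PDK1 read 7.91 and 4.27, 10.7 and 4.81, 6.67 and 4.04, and 5.93 and 11.7 in E2. EGLN3 differed from these in that both E2 libraries were low: it read 25.4 and 16.4 in DMSO, 19.5 and 8.79 in GEN, 23.3 and 14 in BPA, and 11.1 and 11.9 in E2. PFKFB4 and ENO2 completed the 8 members in which replicate 1 was at least 1.5-fold above replicate 2 in DMSO, GEN and BPA alike. ENO2 read 7.63 and 3.55, 11.6 and 2.80, 5.44 and 3.43, and 7.99 and 9.99 in E2, and PFKFB4 10.9 and 6.04, 15.8 and 5.63, 8.35 and 5.30, and 12.3 and 13.1 in E2.

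**Figure D3:**
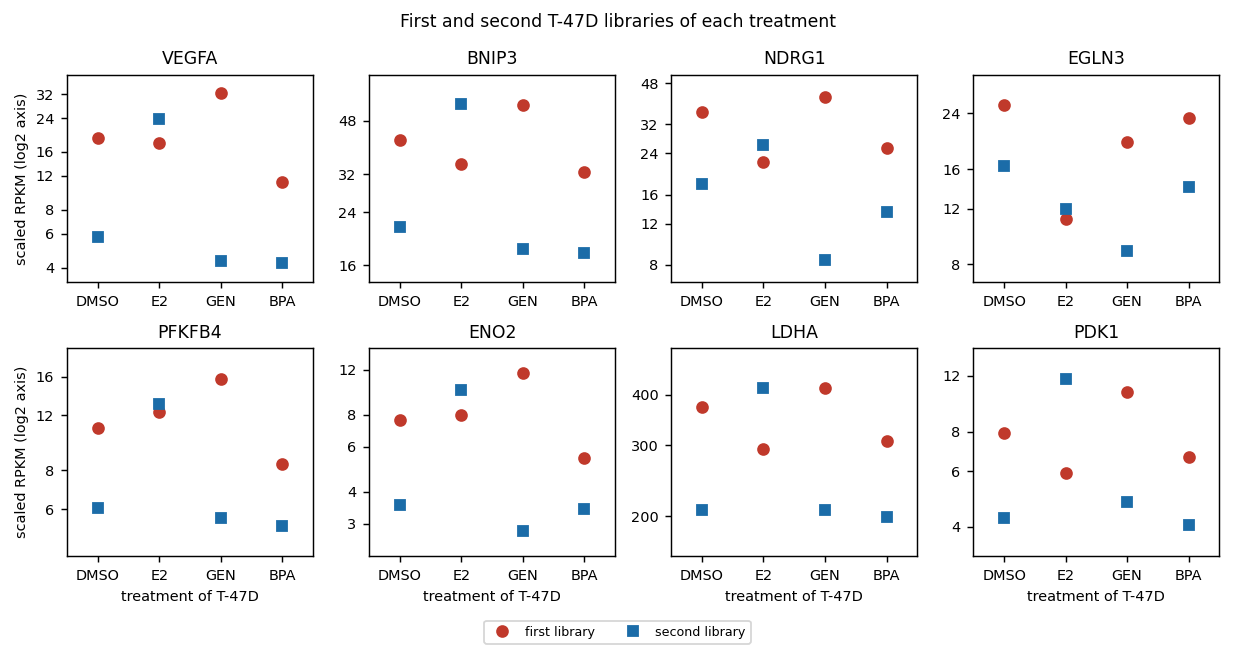
Scaled RPKM (y axis, log2 scale) of 8 members in T-47D by treatment (x axis), with the replicate 1 library (first) as red circles and the replicate 2 library (second) as blue squares. In DMSO, GEN and BPA the circle is at least 1.5-fold above the square in every panel, and in E2 the square is above the circle.

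Those 8 are 21.6% of the 37 members, and 17 of the 13827 genes tested (0.123%) did the same. The other genes of the 17 were ANGPTL4, C20orf46, C4orf31, CXCR4, ERO1L, PPFIA4, SERPINA3, TFF1 and VLDLR, of which ANGPTL4, CXCR4 and ERO1L are also on the list of further hypoxia-inducible factor targets used here. In 25 of 37 members (67.6%) all 3 replicate 1 libraries of DMSO, GEN and BPA lay above all 3 replicate 2 libraries, against 8.98% of all genes, and in 0 they lay below, against 12.2%. The differences were not limited to the members listed as hypoxia-responsive targets, and were also seen in glycolytic members, many of which are targets of the factors too. GAPDH read 1072 and 789 in DMSO, 1181 and 792 in GEN and 913 and 818 in BPA, and PGK1 258 and 186, 284 and 169, and 217 and 178. The sum of the 17 glycolytic enzymes was 5021 and 3848 in DMSO, 5474 and 3747 in GEN, 4387 and 3987 in BPA, and 5231 and 5057 in E2. HIF1A and EPAS1 themselves were not part of it, with replicate 1 differences of 0.12, -0.26 and 0.10 for HIF1A and -0.20, -0.18 and -0.01 for EPAS1 in DMSO, GEN and BPA. Of 25 tested genes on the list of factor partners and further targets, replicate 1 was higher in 20 in DMSO (median 0.33), 20 in GEN (0.45), 17 in BPA (0.23) and 10 in E2 (-0.22). The pentose phosphate genes differed less, with medians of 0.08, 0.06 and 0.02 over 7 genes.

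**Figure D4:**
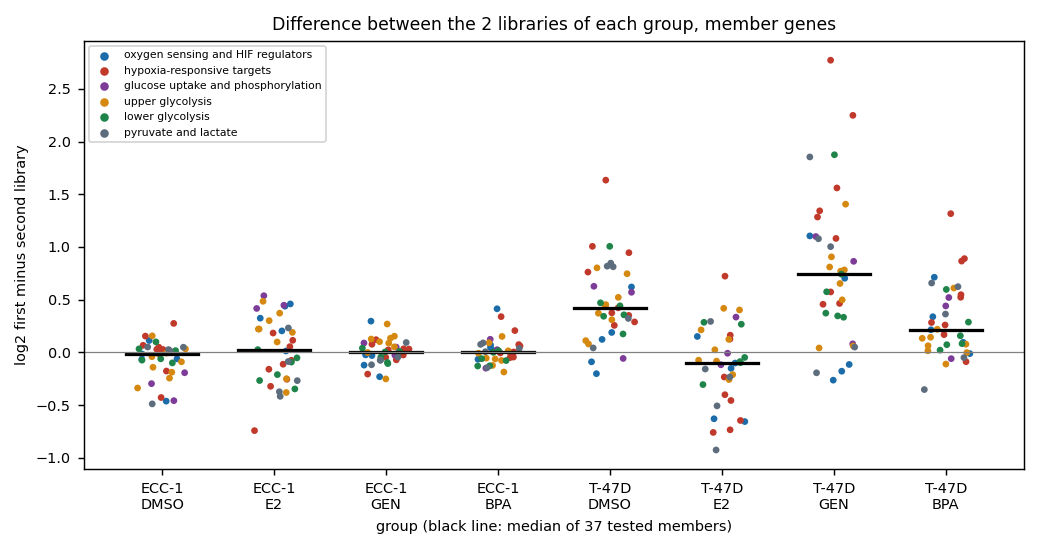
Log2 difference between the replicate 1 (first) and replicate 2 (second) library of each group (y axis) for the 37 tested members, coloured by role, in the 8 groups (x axis). Black lines are medians over the members. The medians are 0.42, 0.74 and 0.21 in T-47D DMSO, GEN and BPA, -0.10 in T-47D E2, and between -0.02 and 0.03 in the ECC-1 groups.

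The replicate 1 libraries of T-47D were deeper in all 4 treatments, E2 included, with estimated depths, in the unit above, of 25.7 and 18.1 in DMSO, 24.3 and 20.7 in E2, 20.4 and 18.5 in GEN and 21.0 and 17.4 in BPA, and the part of depth was not tested. Of the 6 fibroblast markers in T-47D, COL1A1 made up most of the sum, with means of 18.2 in DMSO and 23.0 in E2. LUM (1.12 and 0.60) and DCN (0.79 and 0.65) went the other way, and COL1A2, COL3A1 and PDGFRB lay near the floor. The summed fibroblast markers were 19.8 and 20.6 in DMSO, 21.4 and 20.3 in GEN, 19.7 and 23.8 in BPA, and 31.8 and 16.9 in E2 (replicate 1, then replicate 2). The luminal markers were 1050 and 1070, 1130 and 939, 1020 and 983, and 854 and 1140 in the same order. The part of these markers in the differences was not tested. Since each treatment is compared with DMSO over these libraries, the members that differ most between replicates have wide intervals below.

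E2 in T-47D changed 2 members. PFKFB3, whose product makes a potent activator of phosphofructokinase, rose from 21.0 and 12.3 in DMSO to 47.5 and 56.8, and EPAS1 fell from 81.9 and 94.3 to 47.9 and 43.1. In both genes the E2 libraries and the DMSO libraries did not overlap. Of all genes tested 3.22% passed (2.1% higher and 1.11% lower), and 1 higher and 1 lower of 37 members is near that share. The rise of PFKFB3 was 1.66 (SE 0.245, interval 1.14 to 2.18, adjusted p = 0.000916) and the fall of EPAS1 -0.94 (SE 0.148, interval -1.26 to -0.63, adjusted p = 0.00160). Without the replicate 1 library of E2, which stood apart, they were 1.79 (adjusted p = 0.00553) and -1.02 (adjusted p = 0.00553). The PFKFB3 call ended with array weights (adjusted p = 0.0597) and in a fit on T-47D alone (adjusted p = 0.0685). The array weights were equal for the 2 libraries of each group (0.249 for both of E2 in T-47D), so they do not single out the replicate 1 library. Set within replicate numbers, PFKFB3 was higher by 1.16 and 2.16, and EPAS1 differed by -0.77 and -1.12.

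**Figure D5:**
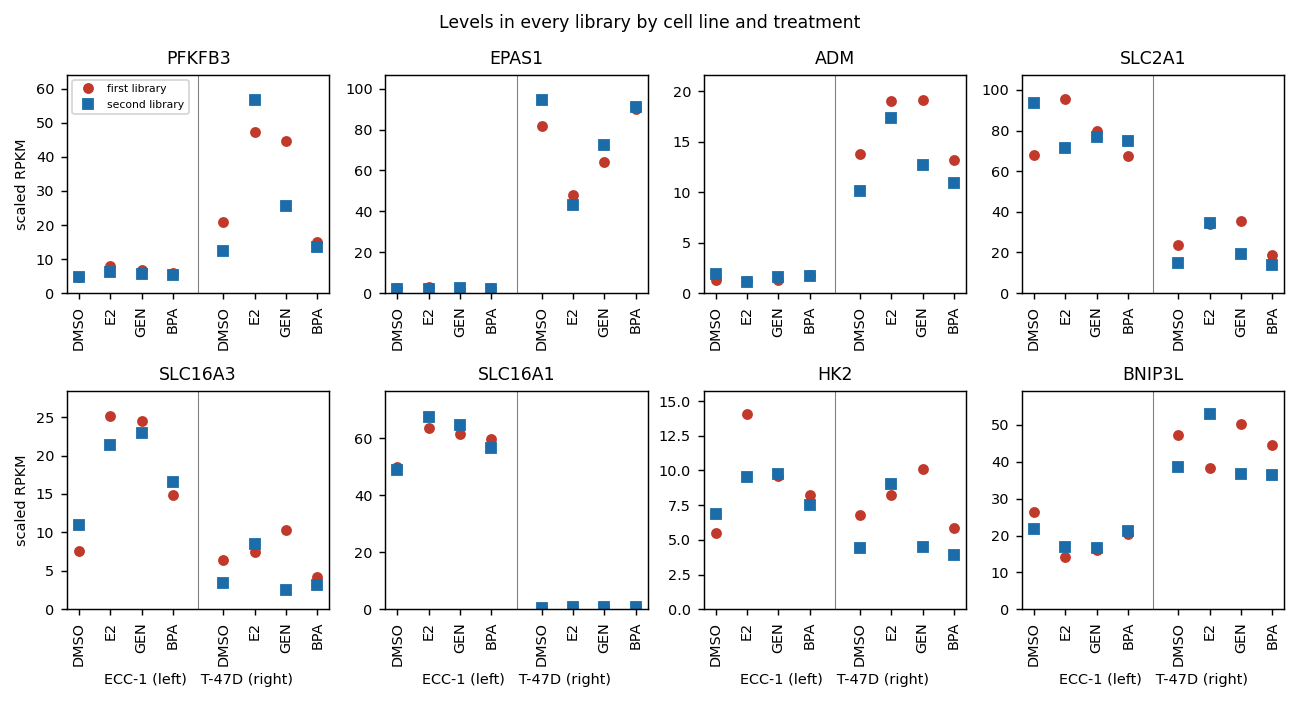
Scaled RPKM (y axis) in each library of 8 members by cell line and treatment (x axis), replicate 1 (first) as red circles and replicate 2 (second) as blue squares. The PFKFB3 points of T-47D E2 lie at 47.5 and 56.8, above the DMSO points, and those of EPAS1 at 47.9 and 43.1, below them.

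The other members did not pass with E2 in T-47D. The fitted difference was positive in 31 of 37 with a median of 0.27, against 47.6% of all genes and a median of -0.01, but this differed by replicate number. Between the replicate 1 libraries 19 of 37 members were positive (median 0.06), and between the replicate 2 libraries 31 (median 0.50), with 16 positive and 3 negative in both. GAPDH, for example, read 1042 with E2 and 1072 with DMSO in replicate 1, and 1107 and 789 in replicate 2. LDHA read 293 and 374 in replicate 1, and 417 and 208 in replicate 2, so its sign turned between the pairs. The summed fibroblast markers, mostly COL1A1, also differed between the E2 libraries (31.8 and 16.9), and their part was not tested. At an unadjusted p under 0.05 there were 6 higher and 3 lower of 37, against 14.8% of all genes tested. SLC2A1 read 34.2 and 34.4 with E2 against 23.5 and 15.0 (0.85, interval 0.30 to 1.40, adjusted p = 0.106), and ADM 19.0 and 17.4 against 13.8 and 10.1 (0.60, interval 0.18 to 1.02, adjusted p = 0.143). P4HA2 (0.50, adjusted p = 0.0992) and PFKP (0.68, adjusted p = 0.125) were of the same kind, with both E2 libraries above both DMSO libraries. With replicate number as a block, SLC2A1 and ADM passed too, which made 4 members. Without the replicate 2 library of E2 the count was 6 (HIF1A, EPAS1, VHL, P4HA2, PFKL and PFKFB3), and without either GEN library of T-47D it was 4 (EPAS1, SLC2A1, PFKP and PFKFB3). The targets that differed most between replicates stayed wide, VEGFA at 0.93 (-0.45 to 2.32), BNIP3 at 0.54 (-0.34 to 1.41) and LDHA at 0.33 (-0.34 to 0.99).

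GEN in T-47D changed 0 of the 37 members, against 0.803% of all genes (0.781% higher and 0.0217% lower), in limma with adjusted p under 0.05. At an unadjusted p under 0.05 there were 2 higher and 1 lower of 37, against 5.79% of all genes tested. PFKFB3 read 44.6 and 25.7 against 21.0 and 12.3 (1.05, interval 0.53 to 1.58, adjusted p = 0.0689), and within replicate numbers the rise was 1.07 and 1.03. EPAS1 read 64.1 and 72.6 against 81.9 and 94.3 (-0.36, interval -0.68 to -0.05, adjusted p = 0.643). SLC16A1, at 0.674 and 0.843 near the bottom of the range, had a difference of 0.34 (interval 0.05 to 0.63, adjusted p = 0.612). The comparisons of the 3 agents in a line share their DMSO libraries. PFKFB3 passed with replicate number as a block, with array weights, without both replicate 1 libraries of E2, without the replicate 1 DMSO library and without the replicate 2 GEN library of T-47D.

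BPA in T-47D changed 0 of 37 members and 0% of all genes (0 of 13827) in limma, and 0 members had an unadjusted p under 0.05, against 116 genes in all. The smallest p-values belonged to SLC16A1 (0.27, interval -0.02 to 0.56), ALDOC (-0.23, interval -0.68 to 0.22) and NDRG1 (-0.45, interval -1.51 to 0.60), each with adjusted p = 1. PFKFB3 read 15.1 and 13.7 and EPAS1 90.1 and 90.8, values between those of the 2 DMSO libraries. The median interval of a member, which is not adjusted for the number of genes, reached 0.45 to each side on the log2 scale. Smaller differences could be missed here, and after adjustment over all genes tested larger ones too.

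GEN and BPA were given at the same dose of 100 nM and the same time, so their libraries can be set against each other directly. They are different phenolic compounds, GEN an isoflavone and BPA a bisphenol. This made 2 comparisons, 1 per line, each adjusted over all genes tested. In T-47D, PFKFB3 was higher with GEN (44.6 and 25.7) than with BPA (15.1 and 13.7) by 1.21 (SE 0.245, interval 0.69 to 1.73, adjusted p = 0.0453), with no overlap. It was the only member of 37 past the threshold, against 0.405% of all genes (0.383% higher with GEN and 0.0217% lower), and the call held in 9 of 28 other settings, so it is a marginal one. Without the replicate 1 GEN library it was 0.82 (adjusted p = 0.491), without the replicate 2 GEN library 1.6 (adjusted p = 0.0375), and without the replicate 1 or 2 BPA library 1.28 (adjusted p = 0.279) or 1.14 (adjusted p = 0.291). It also ended without either ECC-1 library of any treatment or either E2 library of T-47D, where the estimate stayed at 1.21 and the adjusted p ranged from 0.0510 to 0.0799. EPAS1 (-0.40, adjusted p = 0.721) and SLC2A1 (0.70, adjusted p = 0.766) were next. The fitted difference was positive in 30 of 37 members with a median of 0.19, against 46.9% of all genes and a median of -0.01. Between the replicate 1 libraries 32 members were higher with GEN (median 0.43), and between the replicate 2 libraries 17 (median -0.02). In ECC-1 0 of 37 passed, against 0.0434% of all genes, and 0 had an unadjusted p under 0.05. The smallest p-values there belonged to BNIP3L (-0.35, interval -0.74 to 0.04), HK1 (0.23, interval -0.09 to 0.54) and SLC16A3 (0.58, interval -0.28 to 1.45), which does not show that the compounds act alike.

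In ECC-1 none of the 37 members passed in limma with any of the 3 agents, while 1.89% of all genes passed with E2 (1.42% higher and 0.477% lower), 0.969% with GEN (0.81% and 0.159%) and 0.195% with BPA, all of them higher. With E2, 4 members of 37 were higher and 1 lower at an unadjusted p under 0.05, against 15.4% of all genes tested. BNIP3L read 14.1 and 16.9 with E2 against 26.3 and 21.7 in DMSO (-0.61, interval -0.9999 to -0.22, adjusted p = 0.125). The lactate carrier gene SLC16A3 read 25.2 and 21.4 against 7.65 and 10.9 (1.30, interval 0.43 to 2.16, adjusted p = 0.143), and SLC16A1 63.7 and 67.7 against 49.9 and 49.0 (0.41, interval 0.12 to 0.70, adjusted p = 0.170). In all 3 genes the E2 and DMSO libraries did not overlap. HK2 was also apart, at 14.1 and 9.54 against 5.50 and 6.87 (0.86, adjusted p = 0.178).

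With GEN in ECC-1 the smallest p-values belonged to 2 carrier genes and a mitophagy receptor gene, over the same DMSO libraries. SLC16A3 read 24.6 and 23.0 (1.33, interval 0.46 to 2.19, adjusted p = 0.240), BNIP3L 16 and 16.5 (-0.54, interval -0.93 to -0.15, adjusted p = 0.320) and SLC16A1 61.6 and 64.9 (0.35, interval 0.06 to 0.64, adjusted p = 0.448). At an unadjusted p under 0.05 these were 2 higher and 1 lower, against 7.67% of all genes tested. With BPA, SLC16A3 read 14.9 and 16.5 (0.75, interval -0.12 to 1.61), SLC16A1 59.7 and 56.6 (0.23, interval -0.06 to 0.52) and PFKM 32.9 and 30.8 (0.15, interval -0.12 to 0.42), each with adjusted p = 1, and 0 members had an unadjusted p under 0.05. SLC16A3 passed with E2 and with GEN when ECC-1 was fitted by itself, and without either GEN library of T-47D. Without the replicate 1 library of E2, which stood apart, 0 members passed with E2. Without the replicate 2 library, BNIP3L, HK1 and HK2 passed with E2. With array weights BNIP3L, SLC16A1 and SLC16A3 passed with GEN.

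The difference between the lines in their response was tested by an interaction. With E2 it passed for EPAS1 alone (-0.997, SE 0.210, interval -1.44 to -0.55, adjusted p = 0.0232), against 1.73% of all genes (0.89% higher and 0.839% lower). EPAS1 in ECC-1 read 2.43 and 2.21 in DMSO and 2.90 and 2.01 with E2, an estimated 198 to 350 reads over the 8 ECC-1 libraries, a level far under that of T-47D. The call ended without the replicate 1 (-1.05, adjusted p = 0.0701) or replicate 2 (-0.94, adjusted p = 0.105) DMSO library of ECC-1, without the replicate 1 E2 library of ECC-1 (-0.78, adjusted p = 0.0890) and without the replicate 2 DMSO library of T-47D (-0.90, adjusted p = 0.143). Without both replicate 1 libraries of E2 it was -0.86 (adjusted p = 0.034). PFKFB3 (1.15, adjusted p = 0.126) and ADM (0.93, adjusted p = 0.128) did not pass, so the rise of PFKFB3 in T-47D was not shown to differ from the 0.51 of ECC-1. With GEN (0.586% of all genes, 0.239% higher and 0.347% lower) and with BPA (0.0434%) 0 members passed in limma, and 0 had an unadjusted p under 0.05. The smallest p-values were those of BNIP3L (0.54), SLC16A3 (-1.20) and EGLN3 (-0.94) for GEN and SLC16A3 (-1.07), HK2 (-0.49) and PFKFB3 (-0.40) for BPA.

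Further genes of these pathways came from 4 lists. Of the list of hypoxia-inducible factor partners and further targets, 28 of 29 were in the files and 25 were tested. With E2 in T-47D 2 of these rose and 0 fell. The shares of all genes that passed are given above with each comparison, and counts this small say nothing particular of a list. KDM4B, a histone demethylase gene, rose from 21.2 and 24 to 58.8 and 48.3 (1.22, SE 0.151, adjusted p = 0.000179), and kept that call in all 28 other settings. EGLN2, the third of the prolyl hydroxylase genes, rose from 25.3 and 24.9 to 57.4 and 41.2 (0.94, SE 0.180, adjusted p = 0.00814). With GEN, EGLN2 read 48.5 and 50.7 (0.97, adjusted p = 0.0143) and was the only one of the 25 to pass, with KDM4B at 34.4 and 37.3 (0.66, adjusted p = 0.0644). The EGLN2 calls were lost without either DMSO library of T-47D, with adjusted p of 0.0559 and 0.0845 for E2 and 0.115 and 0.144 for GEN. They also ended without the replicate 1 E2 library (0.70) and without the replicate 1 (1.0) or replicate 2 (0.94) GEN library. Both calls ended in a fit on T-47D alone, the E2 call also with array weights and the GEN call with no filter on low values. In ECC-1 AK3L1, an adenylate kinase gene now named AK4, read 23.6 and 22.6 with E2 against 14.6 and 15.0 (0.63, adjusted p = 0.0448), a call held in 8 of 28 settings that ended without the replicate 1 (adjusted p = 0.327) or replicate 2 (adjusted p = 0.198) DMSO library or the replicate 1 E2 library (adjusted p = 0.280). Leaving out either GEN or BPA library of ECC-1, or a DMSO, BPA or the replicate 2 GEN library of T-47D, also ended it (adjusted p between 0.0502 and 0.0761). The E2 response of KDM4B was larger in T-47D than in ECC-1 by 0.92 (adjusted p = 0.0409), which held in 11 of 27 settings. It ended without any 1 of the 4 DMSO libraries, the replicate 1 E2 library of T-47D, the 4 GEN libraries, the 2 BPA libraries of ECC-1 or the replicate 2 BPA library of T-47D, with adjusted p between 0.0508 and 0.145.

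Of 12 genes for pyruvate entry into mitochondria and its use there 11 were tested, and 1 fell with E2 in T-47D. The share of all genes that fell is given above, and a single call says nothing particular of the list. PDP1, a phosphatase gene that activates pyruvate dehydrogenase, fell from 8.56 and 9.60 to 5.11 and 5.61 (-0.71, adjusted p = 0.0136). That call ended without the replicate 2 DMSO library (-0.63) or the replicate 1 E2 library (-0.65) of T-47D, with array weights and in a fit on T-47D alone. PDHB, a subunit gene of that enzyme, was next at 0.54 (adjusted p = 0.0524). Of 25 further isozyme and gluconeogenic genes (13 tested) and 7 pentose phosphate genes (7 tested), 0 passed in any comparison of an agent with DMSO.

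Between the lines in DMSO, 13 of the 25 partners and further targets were higher in T-47D and 8 lower. CITED2, an inhibitor of the factors' coactivator contact, read 172 and 189.6 in T-47D and 6.79 and 9.20 in ECC-1 (4.43), and ARNT2 0.182 and 0.214 against 3.38 and 2.90 (-2.38). Of the 13 isozyme and gluconeogenic genes 4 were higher and 6 lower, with the gluconeogenic FBP1 at 61.1 and 46.3 against 3.08 and 3.21 (3.88) and C12orf5, the gene of the fructose bisphosphatase TIGAR, at 1.21 and 0.930 against 7.75 and 7.45 (-2.37). PGAM4 (-0.47) was among the lower ones and may share reads with PGAM1. The list of pyruvate entry and use held 2 higher, PDK2 (1.5) among them, and 2 lower, the mitochondrial pyruvate carrier subunit BRP44L (-1.07) among them. The pentose phosphate list held 1 higher and 4 lower of 7, with RPIA at -1.43 and TALDO1 at -1.02. Against the background of 76.7% of all genes these counts say nothing particular of the lists.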

How the data were processed

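The 16 libraries were polyadenylated RNA sequenced after transposase-based preparation without strand, per the labels' protocols, so a gene and its antisense neighbour share their reads in these values. The authors deposited 1 table of 32062 RefSeq rows per library in RPKM, and the submitters' processing notes name hg19 and Bowtie. The counting method and the handling of reads that match several places are not given in the sources used here. RPKM is no count, so depth was estimated from the steps of low values, of which 62.0 to 64.6% lay within 0.1 read of a whole number in each library (20% by chance), too few to recover counts. The row with the highest mean RPKM stood for each symbol. The deposited RPKM values were scaled per library by the median of gene-wise ratios to a geometric-mean reference, taken from 7547 genes at 5 RPKM or more throughout. Genes with at least 1 RPKM in 2 libraries were tested on log2(scaled RPKM + 0.5), computed from the deposited values, in limma 3.58.1 (R 4.3.3) with 8 group means, a mean-variance trend and Benjamini-Hochberg adjustment over 13827 genes per comparison, at 0.05. Fold changes on this scale understate those of low genes. The script was tested on simulated data. The alternatives were no scaling, quantile normalization, other pseudocounts, filters and row sums, a replicate block, no trend, array weights, each line alone, leaving out each library, and, chosen after seeing the data, leaving out both replicate 1 libraries of estradiol.

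The members and lists were chosen with earlier results of these data known. Named are all members past the threshold in a treatment comparison or interaction, the 12 with the largest called difference between the lines and the 3 with the smallest difference, the 3 with the smallest p where none passed, and of each further list up to 4 genes by adjusted p over the treatments and 2 between the lines. Other members, the chromosome 12 neighbours and the genes that differed between T-47D replicates were named after their values were seen. Promoters came from RefSeq (GRCh38.p14), where VHL, VEGFA, BNIP3L, NDRG1, SLC2A3 and SLC16A1 had no entry.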

Additional observations from a re-analysis of the deposited data

Results flagged for a closer look

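The response of EPAS1 to estradiol differed between the lines by a test of the difference itself. The interaction was -0.997 (log2 scale, adjusted p = 0.0232 in limma), with a fall in both estradiol libraries of T-47D against both DMSO libraries and values of 2.90 and 2.01 against 2.43 and 2.21 in ECC-1. Of 27 other settings 5 lost the call, while the estimate stayed between -1.22 and -0.776. The call was lost with array weights, without either DMSO library of ECC-1 and without the replicate 1 estradiol library of ECC-1. Leaving out the replicate 2 DMSO library of T-47D ended it as well. Groups of 2 libraries are too small to tell which library is the outlying one.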

How the results depend on the processing

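Of 28 member calls followed over 27 or 28 alternative settings each (759 values), 723 kept direction and call, 35 lost the call and 1 reversed, PGAM1 between the lines after quantile normalization (0.385). The median of all genes in that comparison was 0.04 as reported, -0.05 unscaled and -0.03 after quantile normalization. Counts of called members with 1 library left out ranged from 0 to 3 for estradiol in ECC-1, 0 to 1 for genistein in ECC-1, 0 to 0 for bisphenol A in either line, 2 to 6 for estradiol in T-47D, 0 to 1 for genistein in T-47D, 22 to 27 between the lines, 0 to 2, 0 to 1 and 0 to 0 for the interactions of estradiol, genistein and bisphenol A, and 0 to 0 and 0 to 1 for genistein against bisphenol A in ECC-1 and T-47D. Array weights gave 3 for genistein in ECC-1, 1 for estradiol and 1 for genistein in T-47D, and 0 for the estradiol interaction. A fit on 1 line alone gave 1 for estradiol and 1 for genistein in ECC-1, 1 for estradiol in T-47D and 0 for genistein against bisphenol A in T-47D, which was also 0 with no scaling, a pseudocount of 0.1, no filter, a mean of at least 5 RPKM or no trend. Leaving out both replicate 1 estradiol libraries gave 1 for genistein in T-47D. The cause of these changes was not tested.

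The labels do not say what a replicate number shares, and not every pair of groups deviated together: the correlation of replicate differences between groups ran from -0.19 to 0.301 in ECC-1 and from -0.224 to 0.408 in T-47D over 6 pairs of groups each. Among DMSO, GEN and BPA of T-47D it was 0.408, 0.35 and 0.208. Between E2 and these groups it was -0.224 to 0.24, and E2 and GEN of ECC-1 had 0.301. These ranges overlap, so the correlations over all genes do not settle whether the number marks something shared. With a replicate block the count was 4 for estradiol and 1 for genistein in T-47D and 2 for the estradiol interaction (EPAS1 and ADM), and the block ended the PGAM1 call between the lines (-0.348, adjusted p = 0.0534).

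With all transcript rows of a gene summed, which counts shared exons repeatedly, the median shares in ECC-1 and T-47D became 89.4 and 98.5% for HK1, 29 and 38.5% for PFKL, 54.5 and 51.1% for PFKM, 17.1 and 10.2% for PFKP, 99.5 and 97.7% for ALDOA, 76.1 and 84.1% for PFKFB3 and 98.6 and 60.2% for HIF1A. In ECC-1 the share became 74.3% for LDHA, 67.3% for SLC16A1 and 48.6% for P4HA1. Genes set together can differ in their number of rows (HK1 5 and HK2 1, LDHA 6 and LDHB 1), which moves these shares.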
